A study of Mus musculus with 19 samples.

Results

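The hippocampal small RNA of mice given ketamine was compared with that of mice given L803mts, a peptide inhibitor of glycogen synthase kinase 3 (GSK3), by taking every array of those groups: 3 ketamine and 4 L803mts arrays, 7 of the 19 in the series. The series looked for miRNAs that respond to several ways of lowering GSK3 activity, and the values below show where ketamine and the direct inhibitor differ. All mice were adult male C57BL/6, and RNA came from the right hippocampus. Ketamine mice received 10 mg/kg intraperitoneally, with collection 24 h later (n = 3). L803mts mice received 60 µg of the peptide into the nose in 5 µL for each nostril, on alternate days over 3 days (n = 4), with 61 µg in the label of replicate 4. Mice given siRNA against GSK3b by that route (siGSK3b, 10 µg, with 11 µg in the label of replicate 4; n = 4) and mice fed lithium chow for 4 weeks (n = 4) entered the estimate of spread and are quoted as group means. Control mice received vehicle into the nose on the L803mts schedule (n = 4), and no control injected intraperitoneally was among the samples analysed here. Route, schedule and drug therefore differed together between ketamine and L803mts and cannot be told apart. The labels do not state that each sample was a separate mouse, so p-values rest on a spread between samples that may be technical.

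GSK3 is a serine/threonine kinase that is active in resting cells and is switched off by phosphorylation near its amino terminus. L803mts is a phosphorylated, myristoylated peptide that competes with substrates of the kinase. Ketamine blocks NMDA-type glutamate receptors, acts as a fast antidepressant, and is known to raise the inhibitory phosphorylation of GSK3 in mouse hippocampus. miRNAs are short RNAs that pair through their seed with messenger RNAs and lower their translation and stability, and many are abundant in hippocampal neurons.

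Probes are named here by the array's own codes. None of these codes (0) matched the table of mouse miRNAs available, so neither the miRNA behind a probe nor its sequence is given, and the tissue could not be checked against miRNAs that mark it. Values are normalized log2 intensities, on which a difference of 1 is a doubling, and they understate changes of dim probes because an offset of 50 was added to each intensity. Intensities in bulk tissue cannot tell fewer cells of a type from less RNA per cell.

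The analysed arrays lay on 6 slides, each with arrays of a single group. The 3 ketamine arrays shared a slide, L803mts replicates 1, 3 and 4 shared another, and L803mts replicate 2 lay alone on a later slide. Ketamine and its slide thus cannot be told apart, and the differences between the drugs are given with and without L803mts replicate 2. Median foreground intensity was 162 to 187 on ketamine arrays and 147 to 154 on L803mts replicates 1, 3 and 4, and was 115 on replicate 2. Without replicate 2 the groups had an exact two-sided permutation p of 0.1 (0.2 adjusted over 4 array measures), the smallest that 20 splits allow, and with it 0.0286 (adjusted 0.0572), the smallest that 35 splits allow. Median local background was 103 to 109 on ketamine arrays and 78 to 92 on L803mts arrays, with the same p-values. These p-values treat arrays of a slide as independent, and without replicate 2 they set a single slide against a single slide. The spread used in limma likewise came from arrays within slides, apart from L803mts replicate 2. Ketamine arrays had 166 to 171 saturated spots and L803mts arrays 128 to 182. Ketamine arrays had 3289 to 3368 probes detected and L803mts arrays 3306 to 3397, so both measures overlapped between the groups. Across probes the L803mts replicate 2 array correlated with the other L803mts arrays at a median of 0.992, below the 0.994 among those 3 arrays and close to its 0.992 with ketamine arrays. Ketamine arrays correlated at 0.996 among themselves. Of 10336 spots, 88 were marked bad on ketamine replicate 1 and at most 2 on any other array. Whether slide, signal or background contributed to any difference below was not tested.

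With all 4 L803mts arrays, 44 of 3421 tested probes, or 1.29%, passed an adjusted p of 0.05 in limma. Of these, 34 (0.994%) were higher in ketamine and 10 (0.292%) were lower, while 470 probes had an unadjusted p under 0.05. The differences were small: the median was 0.36 log2 units among the 34 higher probes and -0.53 among the 10 lower ones, and none (0) of the 44 exceeded 1 log2 unit. The median absolute difference was 0.42 among the 44 and 0.075 over all tested probes, whose signed median was 0.0010. Without L803mts replicate 2, 63 probes (1.84%) passed, 30 higher (0.877%) and 33 lower (0.965%), with 502 at an unadjusted p under 0.05. Leaving out that array thus left the number of higher probes close to what it was and more than tripled the lower ones. The same 28 probes passed both ways, 21 of them higher and 7 lower in ketamine. A further 16 passed only with replicate 2 (13 higher and 3 lower) and 35 only without it (9 higher and 26 lower). The number of calls also turned on single arrays of either group. It was 0 without ketamine replicate 1 (413 at an unadjusted p under 0.05 in limma), 2 without ketamine replicate 2, 2 without L803mts replicate 1 and 4 without L803mts replicate 4, against 39 without ketamine replicate 3 and 41 without L803mts replicate 3. No probe (0) passed in all 7 of these fits.

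**Figure D1:**
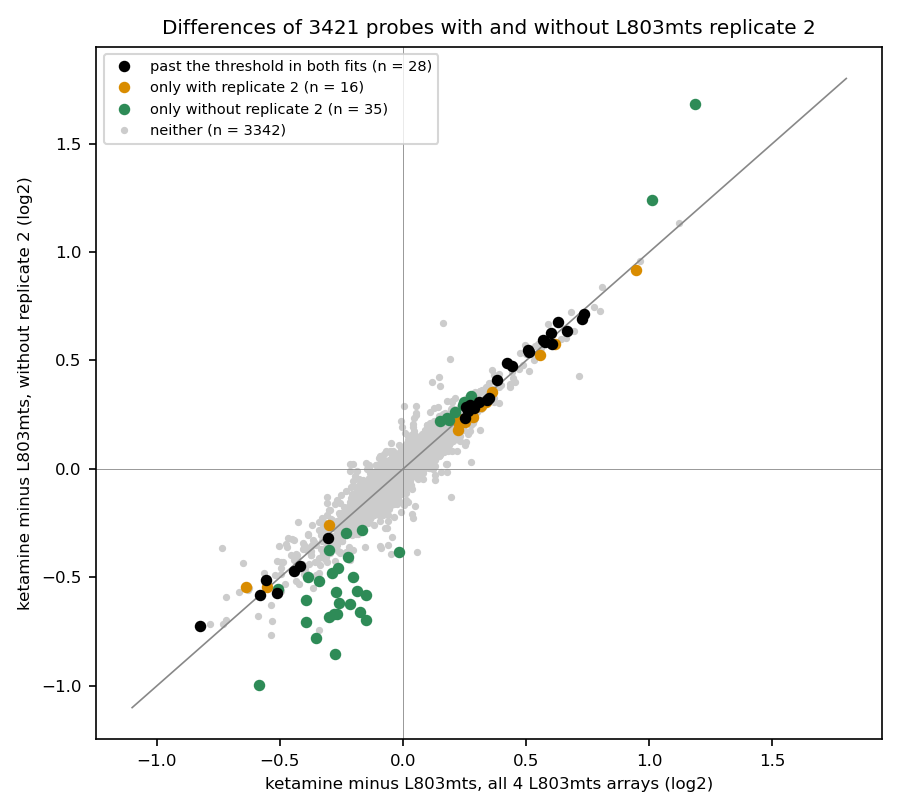
Each point is 1 of 3421 probes; the x axis is ketamine minus L803mts in log2 units with all 4 L803mts arrays and the y axis the same difference without replicate 2, with the line of equality in grey. The 28 probes past the threshold both ways (black) lie near the line, whereas most of the 35 that passed only without replicate 2 (green) lie below it, at small differences on the x axis and differences of -0.997 to -0.28 on the y axis.

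All 3 ketamine arrays lay outside the range of the 4 L803mts arrays for each of the 44 probes. Over all tested probes this was so for 366 (10.7%), 201 with ketamine above (5.88%) and 165 with ketamine below (4.82%). Without L803mts replicate 2 it was so for each of the 63 probes and for 620 (18.1%) of all tested, 320 with ketamine above (9.35%) and 300 with ketamine below (8.77%).

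The comparisons of ketamine and L803mts with control divide these probes by which group passed the threshold against control. Both comparisons share the control arrays, so their differences are given side by side and not set against each other by a test. A group that did not pass may still differ from control. Both groups also differed from control in slide, and ketamine differed in route and schedule as well. Against control 116 probes changed in ketamine (3.39%), 46 upward (1.34%) and 70 downward (2.05%), and 85 in L803mts (2.48%), 21 upward (0.614%) and 64 downward (1.87%). In the fit without L803mts replicate 2 the counts were 158 in ketamine (4.62%), 96 of them downward (2.81%), and 70 in L803mts (2.05%), 18 upward (0.526%) and 52 downward (1.52%). Of the 44 probes that differed between ketamine and L803mts, 12 had changed against control in ketamine, each upward, and 10 in L803mts, 8 downward and 2 upward. None (0) of the 44 had changed in both, in limma, and 22 had changed in neither, against 49 and 3269 of all 3421. With so few probes changed in both over all, the 0 among 44 is near that share and says nothing particular about the 44. In the fit without replicate 2 the same 44 held 14 changed in ketamine, 1 of them downward, 8 in L803mts, none (0) in both and 22 in neither. All 3421 probes then held 49 changed in both and 3242 in neither. The control mean lay between the ketamine and the L803mts mean for 36 of the 44, against 1154 of all 3421. The 44 were chosen for a gap between the means of the drugs. A wider gap is more likely to hold the control mean, so this share is a description.

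Among the 28 probes past the threshold both ways, 6 were higher in ketamine and below control in L803mts, with ketamine close to control. The grouping against control in this and the following sets uses the fit with all arrays. ORB_0511135 had 12.13, 11.91 and 11.51 on the ketamine arrays, against 11.24, 11.05, 11.10 and 11.06 on the L803mts arrays and 11.66 to 11.85 on the control arrays. The ketamine arrays straddled those of control and lay above every L803mts array, the lowest of them by little. Its difference from L803mts was 0.73 (SE 0.14, adjusted p = 0.0288), or 1.66-fold, and 0.71 without replicate 2 (adjusted p = 0.0284). Against control it differed by 0.08 in ketamine (adjusted p = 0.879) and fell by 0.66 in L803mts (adjusted p = 0.00917), or by 0.64 without replicate 2 (adjusted p = 0.0276). ORB_0510279 had 13.07, 13.16 and 12.69 on ketamine arrays, against 12.24, 12.21, 12.46 and 12.31 on L803mts arrays and 12.76 to 13.09 on control arrays. Here too ketamine straddled control and all L803mts arrays lay below both. It was 0.67 higher in ketamine than in L803mts (SE 0.12, adjusted p = 0.0288), and 0.64 without replicate 2 (adjusted p = 0.0257). In the authors' deposited table, refitted with the same model, the difference was 0.70 (adjusted p = 0.0145), and 0.66 without replicate 2 (adjusted p = 0.0405). The values of that table were not normalized again, and p-values were adjusted over its 747 probes. Adjusted p-values of the table are thus not on a like basis with the others.

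ORB_0511159 and ORB_0511565, among the brighter probes, had the same order. ORB_0511159 stood at 13.25, 13.05 and 12.77 in ketamine, against 12.51, 12.34, 12.45 and 12.38 in L803mts and a mean of 12.93 in control, a difference between the drugs of 0.61 (SE 0.11, adjusted p = 0.0288; 0.58 and 0.0188 without replicate 2). ORB_0511565 stood at 14.48, 14.16 and 13.90 in ketamine, against 13.62, 13.62, 13.55 and 13.61 in L803mts and 14.16 in control. Its L803mts arrays spanned less than 0.1 log2 unit and its ketamine arrays more than 0.5, and the difference was 0.58 (SE 0.12, adjusted p = 0.0393; 0.58 and 0.0386 without replicate 2). ORB_1112077 had 12.59, 12.36 and 12.02 in ketamine, against 11.74, 11.80, 11.63 and 11.72 in L803mts and 12.21 in control (0.60, SE 0.13, adjusted p = 0.0427; 0.63 and 0.0385 without replicate 2). The other member of the 6, ORB_1112468, differed by 0.51 (SE 0.12, adjusted p = 0.0427; 0.55 and 0.0386 without replicate 2). Over the 6 probes ketamine differed from control by 0.01 to 0.12 (adjusted p = 0.775 to 0.991) and L803mts by -0.66 to -0.48 (adjusted p = 0.00907 to 0.0431). Without replicate 2 the L803mts differences were -0.64 to -0.48 and 5 of the 6 passed; ORB_1112077 did not (-0.51, adjusted p = 0.0676). The mean of the siGSK3b arrays and that of the lithium arrays also lay below the control mean for all 6 probes, for example at 11.25 and 11.36 for ORB_0511135, 12.48 and 12.48 for ORB_0510279, and 12.55 and 12.69 for ORB_0511159. These siRNA and lithium values, which share the same control arrays, are descriptions with no test. In each of the 5 named probes of this kind ketamine replicate 3 was the lowest ketamine array. ORB_0511135, ORB_0511159, ORB_0511565 and ORB_1112077 shared print block 3 of the array. In these, levels fell from ketamine replicate 1 through 2 to 3, which lay at positions A, B and C of their slide. ORB_0510279, in print block 4, was highest on ketamine replicate 2. Whether array position or print block contributed was not tested. Without ketamine replicate 1 the adjusted p of the 5 was 0.126 to 0.186, without ketamine replicate 2 it was 0.111 to 0.181, and without L803mts replicate 1 or 4 it was 0.0601 to 0.102. Without L803mts replicate 3, ORB_0511565 and ORB_1112077 were at 0.0509 and 0.0604.

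ORB_0511179 had the largest difference of the 44 probes and the same order, but passed only with replicate 2. Its ketamine arrays were at 12.82, 12.32 and 11.82, its L803mts arrays at 11.35, 11.29, 11.44 and 11.43, and its control mean at 12.29. The spread among ketamine arrays was large (SD 0.50, n = 3) beside that among L803mts arrays (SD 0.07, n = 4). The difference was 0.94 (SE 0.21, adjusted p = 0.0427), or 1.92-fold, and 0.92 without replicate 2 (adjusted p = 0.0578). Its call was lost in every fit that left out 1 array except the one without ketamine replicate 3 (adjusted p = 0.0103), and its adjusted p over all alternatives ran from 0.0103 to 0.219.

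In a second set of 8 of the 28 probes ketamine was above control while L803mts was not past the threshold against control. ORB_0510078 had 10.62, 10.34 and 10.46 on the ketamine arrays, against 9.59, 9.63, 9.93 and 9.82 on the L803mts arrays and 9.72 to 9.88 on the control arrays. The ketamine arrays stood clear of both other groups, which overlapped. The difference from L803mts was 0.73 (SE 0.11, adjusted p = 0.00575), or 1.66-fold, and 0.69 without replicate 2 (adjusted p = 0.00779). Ketamine exceeded control by 0.68 (SE 0.11, adjusted p = 0.00135), and L803mts differed from it by -0.05 (adjusted p = 0.877; -0.02 and 0.974 without replicate 2). This probe passed in 19 of 25 alternatives, and of the fits that left out 1 array it was lost only without ketamine replicate 1 (adjusted p = 0.0857, range over all alternatives 0.000741 to 0.212).

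ORB_1210381 had the largest rise over control among the 8: ketamine arrays were at 10.07, 10.11 and 10.32, L803mts arrays at 9.63, 9.94, 9.66 and 9.75, and control averaged 9.42. Ketamine exceeded control by 0.75 (adjusted p = 0.000164), and L803mts differed from it by 0.33 (adjusted p = 0.0567; 0.26 and 0.172 without replicate 2). The drugs differed by 0.42 (SE 0.09, adjusted p = 0.0427; 0.49 and 0.014 without replicate 2). The remaining 6, IGN_orb_0408118, ORB_0511298, ORB_0511426, ORB_0511561, ORB_1112044 and ORB_1210602, were 0.26 to 0.35 log2 units higher in ketamine than in L803mts and 0.27 to 0.37 higher in ketamine than in control. Without replicate 2 all 8 passed between the drugs, at 0.27 to 0.69 (adjusted p = 0.00779 to 0.0427), and all 8 were above control in ketamine. The lithium mean also lay above the control mean for all 8. The siGSK3b mean lay above it too, except for ORB_0510078 and ORB_0511561. For ORB_1210381 the siGSK3b and lithium means were 9.57 and 9.89, and for ORB_0510078 they were 9.78 and 9.96 against 9.80 in control. These means are descriptions with no test. ORB_1210381 and the 6 were lost without ketamine replicate 1, a fit with 0 calls, and without ketamine replicate 2 or L803mts replicate 1, fits with 2 calls each. ORB_1210381 and ORB_1210602 were lost in every fit that left out 1 array other than L803mts replicate 2. IGN_orb_0408118 and ORB_0511426 were also lost without ketamine replicate 3 or L803mts replicate 4, ORB_0511298 without L803mts replicate 3 or 4, and ORB_1112044 without L803mts replicate 4. ORB_1210381 and these 6 lie outside the rule for named probes and are given to complete the set.

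Another 7 of the 28 were higher in ketamine than in L803mts by 0.25 to 0.63 with neither drug past the threshold against control. Without replicate 2 the range was 0.23 to 0.68 (adjusted p = 0.0173 to 0.0386), again with neither drug past it. ORB__0908021_3 stood at 12.27, 12.05 and 11.64 in ketamine, against 11.40, 11.50, 11.29 and 11.23 in L803mts, with control between them at 11.81 (difference 0.63, SE 0.15, adjusted p = 0.0427; 0.68 and 0.0386 without replicate 2). ORB_1210466 had 10.14, 9.97 and 9.61 in ketamine, against 9.28, 9.41, 9.23 and 9.44 in L803mts and 9.75 in control (difference 0.57, SE 0.12, adjusted p = 0.0393; 0.59 and 0.032 without replicate 2). In both, ketamine replicate 3 came within 0.2 log2 units of the highest L803mts array. Without ketamine replicate 1 their adjusted p was 0.203 and 0.157, without ketamine replicate 2 it was 0.185 and 0.181, without L803mts replicate 1 it was 0.105 for each, without L803mts replicate 3 it was 0.0764 and 0.0537, and without L803mts replicate 4 it was 0.104 and 0.0629.

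**Figure D2:**
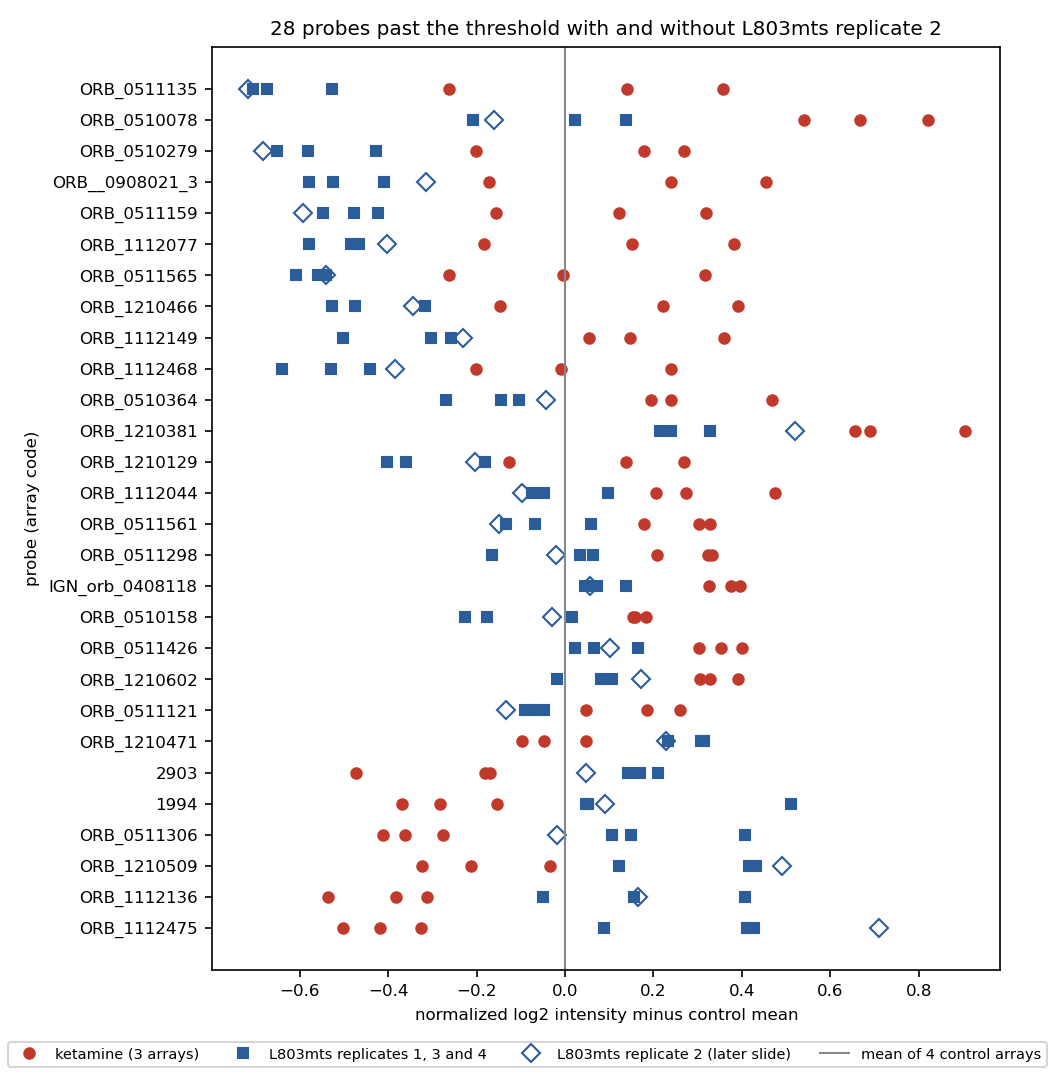
The 28 probes past the threshold with and without L803mts replicate 2, by array code, ordered by the difference between the drugs; the x axis is normalized log2 intensity minus the mean of the 4 control arrays, with ketamine arrays as red circles, L803mts replicates 1, 3 and 4 as blue squares and replicate 2 as an open diamond. The ketamine arrays of ORB_0510078 and ORB_1210381 lie well right of the control line, while for ORB_0511135 and ORB_0510279 they lie around it and the L803mts arrays lie left of it.

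The lower probes were led by ORB_1112475, which had the lowest adjusted p of the comparison. It stood at 12.50, 12.58 and 12.67 in ketamine, against 13.41, 13.71, 13.09 and 13.43 in L803mts and 12.87 to 13.26 in control. All ketamine arrays lay below every control array, and all L803mts arrays but replicate 3 lay above them. The difference was -0.82 (SE 0.11, adjusted p = 0.00415), so that ketamine was at 56.5% of the L803mts level, and -0.72 without replicate 2 (adjusted p = 0.00192), at 60.5%. Against control L803mts was higher by 0.41 (adjusted p = 0.0435) and ketamine differed by -0.41 (adjusted p = 0.0502). Without replicate 2 the calls changed places: L803mts differed from control by 0.31 (adjusted p = 0.128), and ketamine, at the same -0.41, passed (adjusted p = 0.0134). The siGSK3b and lithium means were 13.17 and 12.99, both inside the range of the control arrays. The probe passed in 22 of 25 alternatives, with differences from -0.997 to -0.67. Its call was lost without ketamine replicate 1 (adjusted p = 0.0606) and when ketamine and L803mts were fitted alone, with or without replicate 2 (range over all alternatives 7.68e-06 to 0.151). ORB_1210471 was the other lower probe with L803mts past the threshold against control, at 0.27 above it (adjusted p = 0.0282; 0.29 and 0.044 without replicate 2). It had 8.29, 8.34 and 8.44 in ketamine, against 8.70, 8.62, 8.62 and 8.70 in L803mts and 8.39 in control, and the difference between the drugs was -0.30 (SE 0.07, adjusted p = 0.0427; -0.32 and 0.0397 without replicate 2). It was lost in each fit that left out an array other than L803mts replicate 2 or ketamine replicate 3 (adjusted p = 0.0509 to 0.184).

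In the other 5 lower probes of the 28, ketamine lay below and L803mts above the control mean, with neither difference past the threshold with or without replicate 2. ORB_1112136 had 11.56, 11.49 and 11.34 in ketamine, against 12.28, 12.04, 11.82 and 12.03 in L803mts and 11.87 in control. Its difference was -0.58 both ways (SE 0.11, adjusted p = 0.0315; 0.0317 without replicate 2), or 66.9% of L803mts. In the authors' deposited table, refitted, it was -0.53 (adjusted p = 0.0328; -0.55 and 0.0453 without replicate 2). ORB_1210509, the dimmest of the 5, had 6.77, 6.88 and 7.06 in ketamine, against 7.53, 7.59, 7.22 and 7.51 in L803mts and 7.09 in control (-0.56, SE 0.11, adjusted p = 0.0288; -0.51 and 0.032 without replicate 2). ORB_0511306 had 13.40, 13.31 and 13.26 in ketamine, against 14.08, 13.66, 13.78 and 13.82 in L803mts and 13.67 in control (-0.51, SE 0.10, adjusted p = 0.0381; -0.57 and 0.014 without replicate 2). The groups stood apart in each of these, by the least in ORB_1210509. Probe 1994 had 9.57, 9.44 and 9.35 in ketamine, against 10.23, 9.81, 9.77 and 9.77 in L803mts and 9.72 in control (-0.44, SE 0.10, adjusted p = 0.043; -0.47 and 0.041 without replicate 2). Probe 2903 had 8.58, 8.29 and 8.59 in ketamine, against 8.97, 8.81, 8.90 and 8.93 in L803mts and 8.76 in control (-0.42, SE 0.08, adjusted p = 0.0288; -0.45 and 0.014 without replicate 2). Without ketamine replicate 1 or 2 the adjusted p of the 5 was 0.124 to 0.181, and without L803mts replicate 1 or 4 it was 0.0629 to 0.105. Without ketamine replicate 3, ORB_1112136, ORB_0511306 and 1994 were at 0.0676, 0.0688 and 0.124, and ORB_1210509 and 2903 still passed.

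Of the probes that passed only with all 4 L803mts arrays, 13 were higher and 3 lower in ketamine, with differences of -0.64 to 0.94. Their adjusted p lay between 0.0427 and 0.0453 with replicate 2 and between 0.053 and 0.0791 without it, so that each stood near the threshold both ways. Probe 1970 had 10.96, 11.09 and 10.93 in ketamine, against 11.80, 11.91, 11.21 and 11.59 in L803mts and 11.32 in control (-0.64, SE 0.14, adjusted p = 0.0427; -0.54 and 0.0596 without replicate 2). In the authors' deposited table, refitted, it was -0.63 (adjusted p = 0.041; -0.53 and 0.0932 without replicate 2). ORB_0511181 had 10.67, 11.00 and 11.22 in ketamine, against 11.59, 11.54, 11.45 and 11.48 in L803mts and 11.07 in control, with ketamine arrays around control and L803mts arrays above it (-0.55, SE 0.13, adjusted p = 0.0427; -0.54 and 0.0578 without replicate 2). ORB_0511364 had 9.52, 9.34 and 9.15 in ketamine, against 8.74, 8.60, 8.86 and 8.67 in L803mts and 9.07 in control (0.62, SE 0.14, adjusted p = 0.0427; 0.58 and 0.0596 without replicate 2). Without ketamine replicate 1 the adjusted p of these 3 was 0.151 to 0.203 and without ketamine replicate 2 it was 0.148 to 0.181. Without L803mts replicate 1 or 4 it was 0.0846 to 0.11, and 1970 was also lost without ketamine replicate 3 (0.0889) and ORB_0511181 without L803mts replicate 3 (0.0529).

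The 26 probes that were lower in ketamine only without replicate 2 had another order of levels. Against control 20 of them fell in ketamine, 17 fell in L803mts and 17 fell in both, or 23, 19 and 19 in the fit without replicate 2, and their median difference from control was -1.26 in ketamine and -0.99 in L803mts, or -0.73 in L803mts without replicate 2. L803mts replicate 2 lay below the other 3 L803mts arrays in 25 of the 26, by more than 1 log2 unit below their mean in 16, and below all 3 ketamine arrays in 22. Including it therefore placed the L803mts mean near that of ketamine. Over all 3421 tested probes, replicate 2 lay below the other L803mts arrays in 963 and below all ketamine arrays in 1037. It was more than 1 log2 unit below the mean of the other L803mts arrays in 26 of all tested probes. The probes of this set were chosen for a call that replicate 2 removes. That choice largely sets where replicate 2 lies, so its counts are descriptions. ORB_1112497 had 9.71, 9.72 and 9.52 in ketamine, against 10.51, 8.20, 10.47 and 10.54 in L803mts replicates 1 to 4 and 11.16 to 11.82 in control. The 3 L803mts arrays of the earlier slide lay between control and ketamine, and replicate 2 lay below both. The difference was -0.28 (SE 0.40, adjusted p = 0.841) with all arrays and -0.85 (SE 0.15, adjusted p = 0.0115) without replicate 2, or 55.3% of L803mts.

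Probes 2877 and 2885 had that order too, and IGN_orb_0408127 had it in the means. Probe 2877 stood at 8.69, 8.59 and 8.67 in ketamine, against 9.64, 7.72, 9.34 and 9.31 in L803mts and 10.41 in control (-0.35, SE 0.30, adjusted p = 0.685; -0.78 and 0.00192 without replicate 2). Probe 2885 stood at 7.99, 7.79 and 7.71 in ketamine, against 8.66, 7.29, 8.45 and 8.50 in L803mts and 9.65 in control (-0.39, SE 0.22, adjusted p = 0.478; -0.71 and 0.00198 without replicate 2). In both, replicate 2 was lower than every ketamine array and the other L803mts arrays were higher. IGN_orb_0408127 stood at 9.59, 9.57 and 9.40 in ketamine, against 10.30, 8.67, 10.07 and 10.23 in L803mts and 10.48 in control (-0.30, SE 0.26, adjusted p = 0.696; -0.68 and 0.00192 without replicate 2). Its L803mts replicate 1 lay above the lowest control array, at 10.28. Without replicate 2, L803mts differed from control by -0.27 (adjusted p = 0.16). A plain-number probe in print block 2, taken from earlier results and not named here, stood at 8.17, 7.98 and 8.03 in ketamine, against 9.03, 7.21, 8.87 and 8.50 in L803mts and 9.98 in control. It passed neither way (-0.34, SE 0.32, adjusted p = 0.721; -0.74 and 0.0841 without replicate 2), although the groups without replicate 2 did not overlap. Over all alternatives, with or without replicate 2, these 4 probes had adjusted p from 0.000176 to 0.936.

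Over all 3421 tested probes, the mean per slide fell at every step along the serial order of the 6 slides for 63 (1.84%). It did so for 22 of these 26 probes (84.6%). In that order the slides held control, siGSK3b, L803mts replicates 1, 3 and 4, lithium, ketamine, and L803mts replicate 2. The probes were chosen for lying lower in ketamine than in L803mts replicates 1, 3 and 4 and for a call that replicate 2 removes, which sets a part of this order, so the share is a description. Slide order and treatment cannot be told apart here, and a part of the slides in these differences was not tested.

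**Figure D3:**
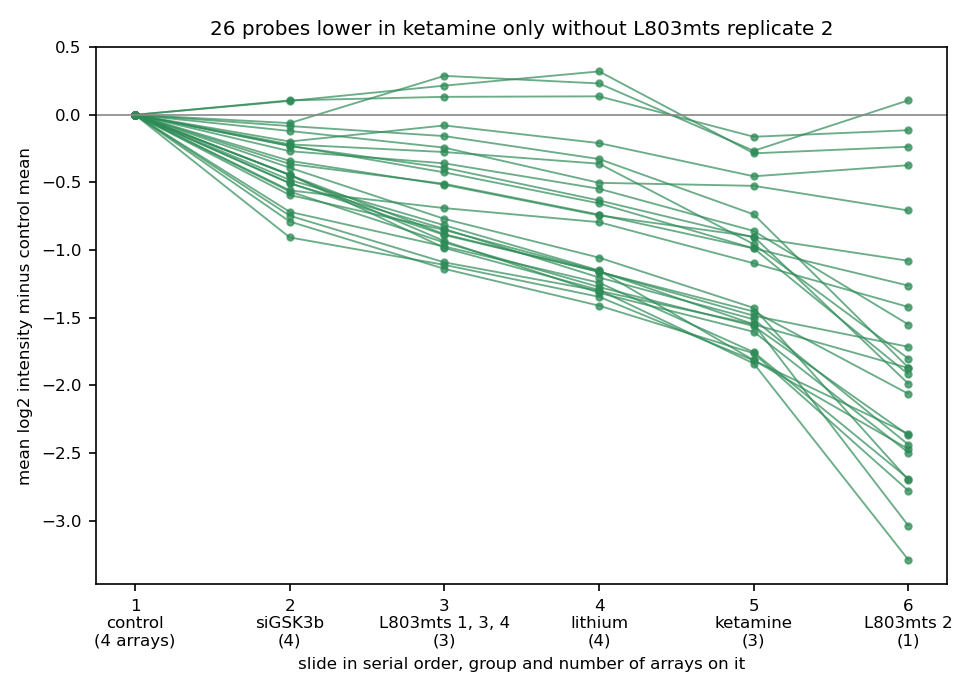
Mean log2 intensity minus the control mean (y axis) of the 26 probes lower in ketamine only without L803mts replicate 2, along the 6 slides in serial order (x axis, with the group and number of arrays on each); each line is a probe. For 22 of the 26 the line falls at every step. L803mts replicate 2, on the last slide, lies below all ketamine arrays for 22 probes and above all of them for 2. It lies more than 1 log2 unit below the mean of L803mts replicates 1, 3 and 4 for 16.

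Only 3 probes differed by more than 1 log2 unit with all 4 L803mts arrays, each higher in ketamine and none past the threshold. ORB_0511275 stood at 13.10, 13.45 and 13.18 in ketamine, against 11.15, 13.55, 11.87 and 11.67 in L803mts and 10.43 to 10.89 in control. L803mts replicate 2 lay above every ketamine array and the other 3 lay between control and ketamine. The difference was 1.18 (SE 0.38, adjusted p = 0.145), and without replicate 2 it was 1.68 (SE 0.22, adjusted p = 0.00192), or 3.21-fold. ORB_1210051 stood at 16.00, 16.00 and 15.81 in ketamine, against 14.37, 15.61, 14.76 and 14.96 in L803mts and 13.57 in control. It was saturated on 2 of the 3 ketamine arrays and on none (0) of the L803mts arrays, so the level on those 2 ketamine arrays is known only as a bound. The measured difference was 1.01 (SE 0.28, adjusted p = 0.0909; 1.24 and 0.0257 without replicate 2), and 0.83 to 1.30 over the alternatives. ORB_1112023, chosen after its values were seen, had 10.25, 9.21 and 8.44 in ketamine, against 8.17, 8.22, 7.99 and 8.35 in L803mts and 9.20 in control. Its difference of 1.12 (SE 0.39, adjusted p = 0.191; 1.13 and 0.213 without replicate 2) rested on ketamine arrays that ranged over more than 1 log2 unit.

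The remaining 9 probes called only without replicate 2 were higher in ketamine, and ORB_0511275 and ORB_1210051 are 2 of them. The differences of the other 7 were 0.22 to 0.33 log2 units without replicate 2. In all 9, replicate 2 was the highest L803mts array, against 1085 of all 3421 tested probes. The 9 were chosen for a call that replicate 2 removes, which largely sets this. In 2 of the 9 (22.2%), ORB_0511275 among them, means rose from control through L803mts replicates 1, 3 and 4 and ketamine to replicate 2. Over all 3421 tested probes this was so for 241 (7.04%), and the choice of the 9 sets a part of this order. Of the 9, 4 rose against control in ketamine and 3 in L803mts, the 3 being among the 4, or 5 in ketamine and 3 in L803mts in the fit without replicate 2.

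Most probes did not differ by much on the normalized scale. The 95% confidence interval of the difference had a median half-width of 0.18 log2 units (0.19 without replicate 2), and it lay wholly within 0.5 log2 units of 0 for 3095 of 3421 probes (90.5%; 3061, or 89.5%, without replicate 2) and within 1 log2 unit for 3369 (98.5%; 3354, or 98%). For these probes larger differences lay outside the interval, whereas a smaller one may have been missed.

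Bright probes made up most of the calls, on a scale where the offset shrinks the differences of dim probes. With probes divided by mean level into 4 parts of near equal size, the brightest held 28 of the 44 (3.27% of its 855 probes) and the dimmest held 1 (0.117% of 856). Without replicate 2 the brightest held 44 of the 63 (5.15%). Among codes of the ORB form 36 of 2384 passed (1.51%), 30 of them higher in ketamine, and among plain numbers 5 of 860 passed (0.581%), 1 higher and 4 lower. Without replicate 2 those shares were close, with 44 ORB codes (1.85%), 28 higher and 16 lower, and 16 plain numbers (1.86%), all 16 lower. Of 8 print blocks on an array, blocks 2 and 3 held 15 (3.5%) and 11 (2.57%) of the 44 and block 4 held 1 (0.233%). Without replicate 2, block 3 held 19 (4.44%) and block 1 held 13 (3.04%). The authors' deposited table covered 747 of the tested probes, of which 12 were among the 44 (1.61%), and 7 of these 12 also passed in a refit of its values. The table comes from the same arrays, and 675 of the 747 differences had the same sign in both.

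The split between higher and lower probes depended on how arrays were scaled. Quantile normalization gave 34 higher and 10 lower, cyclic loess 13 and 9, centring of print blocks 25 and 16, median scaling 0 and 1, and leaving out spots that the scanner software had not found 0 and 24 of 2361 probes tested, where the median over all probes was -0.11. Without L803mts replicate 2 the splits were 30 and 33 with quantile normalization, 14 and 37 with cyclic loess, 36 and 52 with print blocks centred and 5 and 66 with median scaling. All 28 probes past the threshold both ways had the same sign under every alternative tried, as did 15 of the 16 that passed only with replicate 2 and 29 of the 35 that passed only without it. For the 28 and the 16, in fits that leave out 1 array, this follows from groups that do not overlap. Fitting ketamine and L803mts alone, with fewer residual degrees of freedom, gave 0 calls in limma (395 at an unadjusted p under 0.05) and 2 without replicate 2.

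**Figure D4:**
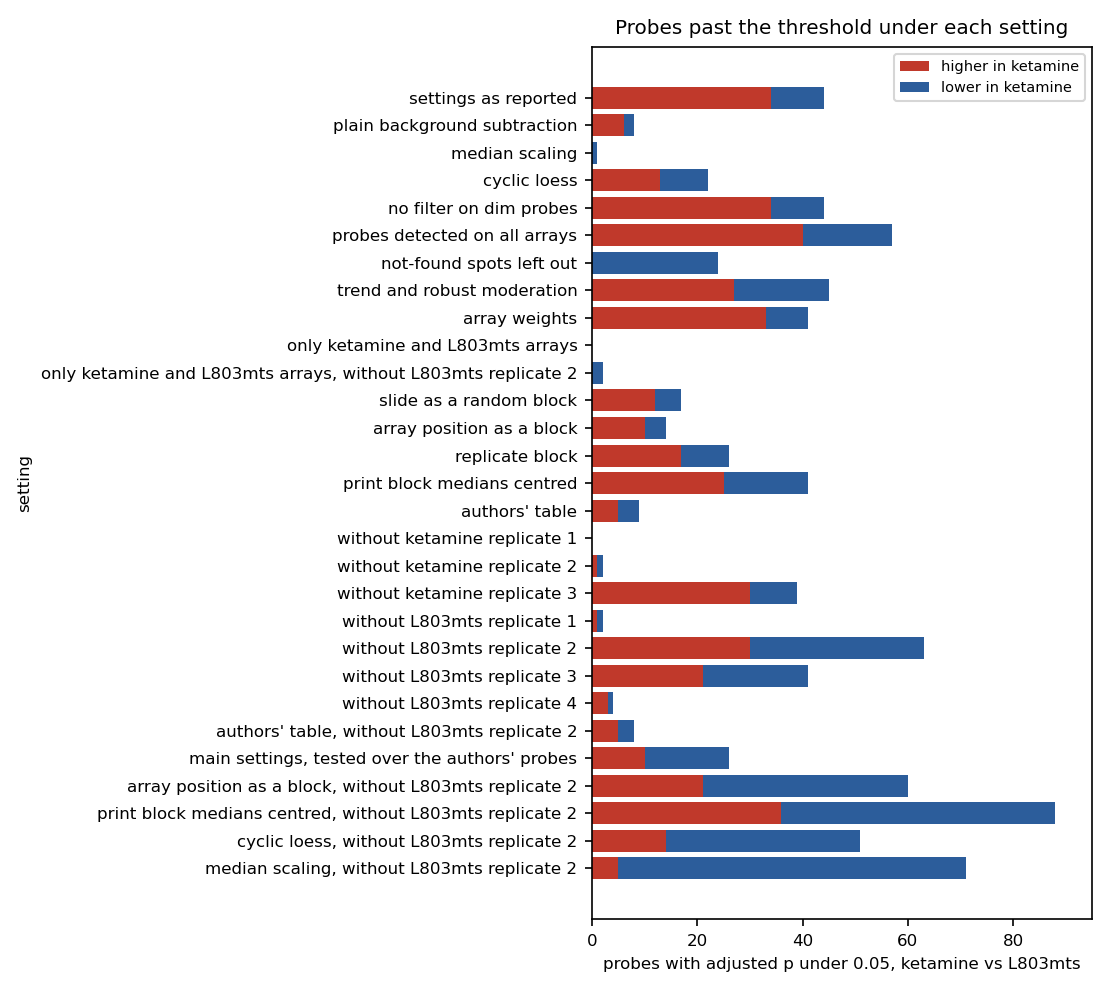
Number of probes past the threshold (x axis, stacked bars) with the settings of the report and under 28 alternatives (y axis), red for probes higher in ketamine and blue for probes lower in ketamine. The count is 44 with the settings of the report, between 0 and 63 when 1 array is left out, and 88 with print blocks centred and L803mts replicate 2 left out.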

How the data were processed

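The deposited intensity values are foreground and local background medians of 1 channel, read with GenePix Pro 4.1.1.4 and not normalized by it, per the file headers. The labels name the 8 blocks of each sample, and only those were read. In the authors' deposited table of processed intensity values, which covers 747 probes, the 4778 decimal cells were multiplied by 1000. Each column then correlated at 0.99996 or more with its own array. The sources used here do not say how the authors normalized that table or whether it was centred.

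Background was corrected with normexp (offset 50), log2 values of the 3 spots per probe were averaged without spots marked bad, and the 19 arrays were quantile normalized (limma 3.58.1 under R 4.3.3, with files read by version 1.17.8 of data.table). The 40 control and blank spots were left out. Of 3432 probes, 3421 were tested, namely those that exceeded local background by over 2 SDs of the background on 3 or more arrays. The files hold no background SD per spot, so a robust SD of the local background medians of each array stood in. In limma the means of the 5 groups were fitted on all 19 arrays, p-values were two-sided and adjusted by Benjamini-Hochberg over the tested probes, and the threshold was 0.05. All adjusted p-values of probes come from limma. The steps were tested on simulated data. Named probes were the 8 probes with the largest positive and the 8 with the largest negative difference past the threshold, the same among those past it with and without L803mts replicate 2, the 5 lowest adjusted p without it, up to 5 that the authors' table lists and 4 from earlier results, 26 in all. The arrays compared, these probes and the tests were chosen with earlier results of these data known. Precision is limited by the number of arrays.

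Alternatives changed 1 choice at a time, or that choice with L803mts replicate 2 left out.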

Additional observations from a re-analysis of the deposited data

Results flagged for a closer look

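Groups of 4 arrays were checked for a lone array far from the rest, in 4 array measures and the named probes. Of 56 checks 6 found one, where chance gives about 1 in 20 (2.8), and 4 of the 6 were L803mts replicate 2. The checks share arrays, and several probes were named because they changed without that array. In L803mts, ORB_1112497 was at 8.20 on replicate 2 and 10.47 to 10.54 on the others. Probe 2877 was at 7.72 there (others 9.31 to 9.64), probe 2885 at 7.29 (others 8.45 to 8.66) and IGN_orb_0408127 at 8.67 (others 10.07 to 10.30). Probe 1994 was at 10.23 on L803mts replicate 1 and 9.77 to 9.81 on the others. In control, probe 2885 was at 9.54 on replicate 1 and 9.67 to 9.70 on the others. The cause of these gaps was not tested.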

How the results depend on the processing

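Against 44 probes past the threshold, plain background subtraction gave 8, median scaling 1, cyclic loess 22, leaving out not-found spots 24, a fit of ketamine and L803mts alone 0 (2 without L803mts replicate 2), slide as a random block 17, array position as a block 14, and the values of the authors' table, over 747 probes, gave 9 (8 without replicate 2, chosen after seeing the data). Slides differ within a group only in L803mts, so slide as a random block (consensus correlation 0.0158) could not estimate the effect of the ketamine slide. Leaving out 1 array gave 0 to 63. Dropping the filter on dim probes gave 44, requiring detection on all arrays 57, trend and robust moderation 45, array weights 41 and centred print blocks 41. Of the alternatives chosen after seeing the data, the reported settings over the authors' probes alone gave 26, and without replicate 2 median scaling gave 71, centred print blocks 88, array position as a block 60 and cyclic loess 51. No named probe changed sign under any of these. Of the 19 named probes that passed, 0 still did without ketamine replicate 1 (adjusted p = 0.0606 to 0.203) and 15 without L803mts replicate 2. The difference in saturated spots reversed without replicate 2, to -6.67, within the spread of arrays. Replicate numbers do not pair the samples: deviations of same-numbered arrays correlated at 0.158, 0.118 and -0.219, and ketamine replicates 1 to 3 matched L803mts replicates 1, 3 and 4 best. With replicate block 26 probes passed, 23 of them among the 44. The cause of the changes in count was not tested, apart from the fewer arrays or probes that some fits hold.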
